A study of Arabidopsis thaliana with 2 samples.

Results

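The kinesin genes of Arabidopsis thaliana were taken as the protein-coding genes whose TAIR10 description, meaning the product name or note in the RefSeq annotation, contained the word kinesin. In all, 74 genes fitted this description. Of these, 73 were deep enough in the Col-0 library, with 10 or more covered CpHpG cytosines (H is A, C or T) read 4 or more times on average, out of 26445 of 27444 protein-coding genes that passed the same coverage rule. The gene left out was CAM5 (AT2G27030), a calmodulin, with 3.93 reads per CpHpG cytosine. The label held for most but not all members. A search of the translated coding sequences found an ATP-binding P-loop in 61 of the 74 genes. The 13 genes without it included calmodulins (CAM2 and CAM5), a NIMA-related protein kinase (NEK6), a microtubule-binding partner of ROP proteins (RIP3), a putative kinesin light chain (NDP1) and a gene fragment of 113 codons (AT4G15885).

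Both samples came from rosette leaves of 3-week-old plants in the first generation homozygous for ibm1-1, grown under long days (16 h light, 8 h dark, 21°C). One was in the Col-0 and the other in the Ler-0 ecotype, where the allele had been brought in from Col-0 by repeated backcrossing. IBM1 encodes a demethylase that removes methyl groups from lysine 9 of histone 3, and its loss lets CpHpG methylation enter genes that normally carry CpG methylation alone. Each ecotype was represented by 1 bisulfite library made from 150 ng of DNA, and there was no library of wild-type plants here, so levels in the mutant could be described but not a gain over the wild type, and no difference between ecotypes could be tested.

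Kinesins are motor proteins that use ATP to move along microtubules or to take them apart. Their motor domain holds the P-loop, which grips the nucleotide, and switch II, which couples ATP hydrolysis to movement. Plant kinesins act in the spindle and in the phragmoplast, the microtubule array that builds the new cell wall after mitosis, and some also act in cell wall deposition, trichome branching and chloroplast positioning.

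The Col-0 library held 371653818 calls (mean 8.63 per cytosine) and the Ler-0 library 313387873 calls (mean 6.58 per cytosine). Cytosines of the chloroplast genome, which is unmethylated, were called methylated in 1.34% (Col-0) and 1.38% (Ler-0) of calls, and this is the floor below which a level carries no information. Levels are given as the methylated share of all calls in a gene, pooled over both strands, and 95% Wilson intervals cover counting error only. Ler-0 levels were read where 500-bp tiles of the gene aligned once to the Ler-0 sequence, and 72 of the 73 members, all but AT5G41310, could be compared. In chr3:250001-9000000 the library labelled Ler-0 went against its label. Only 9.67% of 4344 cytosines present in the Ler-0 sequence alone had reads there, against 80.7% of 77494 elsewhere. This stretch holds IBM1 itself (AT3G07610, chr3:2425884-2433113) and 10 members, among them POK1, POK2, KINESIN-12B and KINESIN-13A, and the main comparisons between the libraries are therefore also given without it.

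The kinesin genes covered a wide range of CpHpG levels, from the non-conversion floor to 35.4%. In Col-0, 27 of 73 members (37.0%) had a CpHpG level of at least 10%, where 18.9% of all protein-coding genes did. Kinesin genes are long, with a median of 5559 bp against 2117 bp for all genes, and the share rises with length. Among protein-coding genes of at least 3 kb the background was 40.1%, and among the 65 members of that length 26 (40.0%) reached the limit, so the members' share was near that background. The genes behind it were still shorter, with a median of 3902 bp against 5661 bp for these members. The same held for CpG methylation, at least 10% in 56 of 73 members (76.7%), in 45.3% of all genes and in 76.2% of genes of at least 3 kb. The median member had 6.45% CpHpG (quartiles 3.21% and 15.8%), 29.8% CpG and 1.32% CpHpH methylation, the last at the non-conversion floor. The 46 members under 10% CpHpG had a median of 3.59%, and 43 of the 73 members had at least 5%. Just above the limit of 10% CpHpG stood AT5G66310 (10.5%) and just below it KP1 (9.77%).

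**Figure D1:**
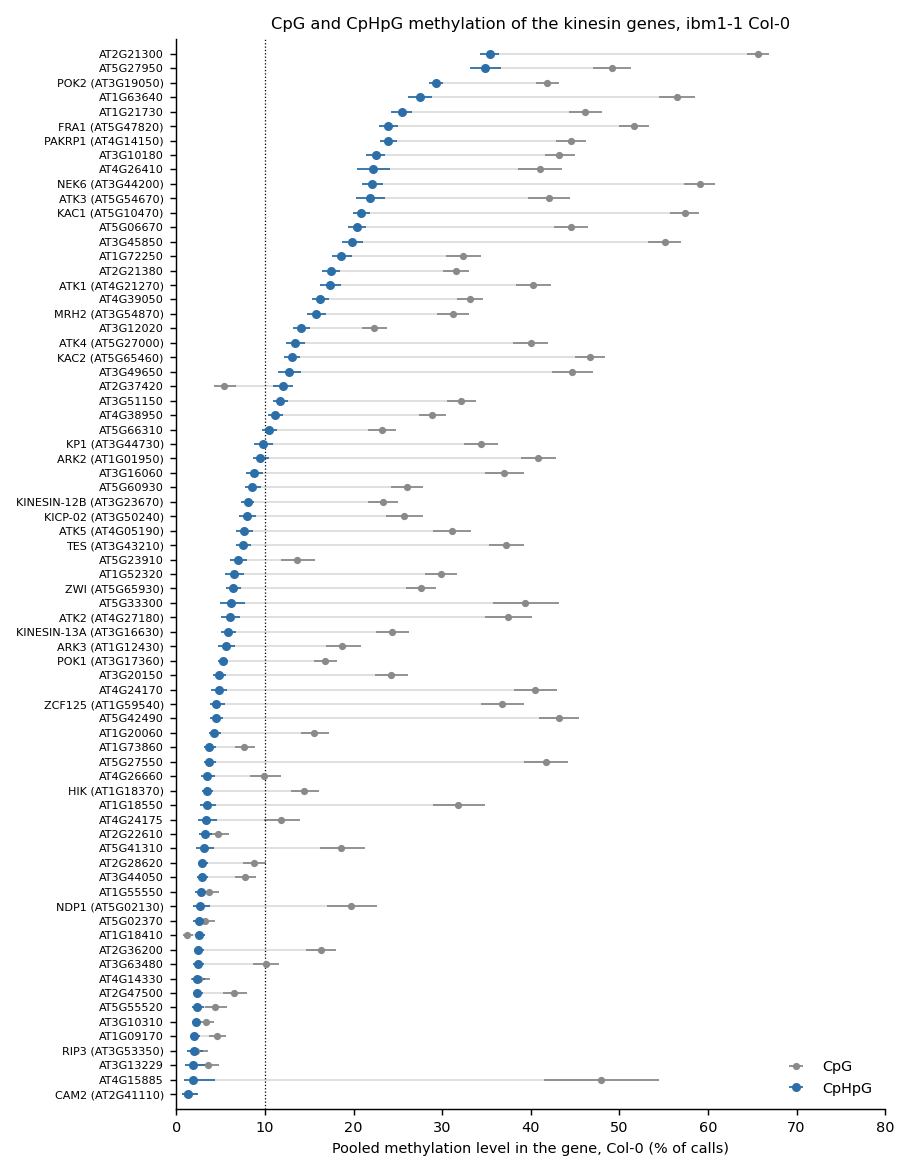
Pooled CpG (grey) and CpHpG (blue) methylation levels of the 73 kinesin genes in ibm1-1 Col-0, in % of calls, ranked by CpHpG, with 95% Wilson intervals and a dotted line at 10%. CpHpG fell from 35.4% in AT2G21300 to 1.29% in CAM2, and in 70 of the genes the CpG level was the higher.

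The sequences below show what such methylation looks like at single cytosines, and were chosen from the tiles with the highest CpHpG levels in Col-0. Each is the plus strand of TAIR10 in the 150 bases of that tile with the most methylated CpHpG cytosines, and UTRs were left out. Capitals mark CpHpG cytosines (a capital G is a cytosine of the minus strand) called methylated in at least 25% of at least 5 reads, first in the Col-0 and then in the Ler-0 library, the second drawn on the same TAIR10 bases. The POK2 stretch is coding sequence at chr3:6583001-6583150, and all 13 of its CpHpG cytosines were methylated in both libraries, though it lies, as does AT3G12020, in the chromosome 3 stretch described above.
POK2, Col-0: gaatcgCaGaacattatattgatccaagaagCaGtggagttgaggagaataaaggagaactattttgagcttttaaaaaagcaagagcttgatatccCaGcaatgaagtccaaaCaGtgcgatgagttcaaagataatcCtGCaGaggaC
POK2, Ler-0: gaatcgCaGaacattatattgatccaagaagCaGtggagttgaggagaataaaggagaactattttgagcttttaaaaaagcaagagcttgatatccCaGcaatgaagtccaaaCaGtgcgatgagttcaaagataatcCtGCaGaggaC
The FRA1 stretch (chr5:19370001-19370150, 81 bases of coding sequence and 69 of intron) had all 15 CpHpG cytosines methylated in Col-0 and 9 in Ler-0.
FRA1, Col-0: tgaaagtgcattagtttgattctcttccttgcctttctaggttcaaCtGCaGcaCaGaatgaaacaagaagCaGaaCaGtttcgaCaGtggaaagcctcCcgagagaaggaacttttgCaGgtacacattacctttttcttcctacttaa
FRA1, Ler-0: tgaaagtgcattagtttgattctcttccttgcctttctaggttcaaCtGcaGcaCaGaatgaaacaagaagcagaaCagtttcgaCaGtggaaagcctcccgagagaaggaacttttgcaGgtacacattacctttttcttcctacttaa
In AT3G12020 (chr3:3830001-3830150, 25 coding and 125 intronic bases) 14 of 16 were methylated in Col-0 and 7 in Ler-0.
AT3G12020, Col-0: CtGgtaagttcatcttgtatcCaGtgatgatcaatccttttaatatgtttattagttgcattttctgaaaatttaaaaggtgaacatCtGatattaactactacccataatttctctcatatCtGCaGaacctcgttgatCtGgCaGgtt
AT3G12020, Ler-0: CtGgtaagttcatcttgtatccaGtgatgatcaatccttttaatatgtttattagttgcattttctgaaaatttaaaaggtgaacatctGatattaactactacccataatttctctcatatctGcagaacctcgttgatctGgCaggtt

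The member with the highest CpHpG level was AT2G21300 (chr2:9114032-9119977), annotated as an ATP-binding microtubule motor family protein, with 35.4% (34.3% to 36.4%) from 18.3 reads per cytosine. Its CpG level was 65.7% and its CpHpH level 2.87%. In its 500-bp tiles CpHpG was 1.02% at the start of the gene, reached 41.3% at 1726 bp from the start and 49.9% at 2226 bp, and dropped to 3.36% at the end. AT5G27950 (chr5:9984044-9988967) followed with 34.9% (33.2% to 36.6%), and its methylation lay in separate blocks that differed in CpHpH. Its tile at 4206 bp from the start, in the 3' UTR, had 68.2% CpHpG, 78.2% CpG and 23.7% CpHpH, the highest CpHpG of all member tiles, and a further block at 2206 and 2706 bp held 32.8% and 40.0% CpHpG with at most 4.01% CpHpH. The gene also led the members in CpHpH, with 8.00% over the whole gene, ahead of 4.90% in POK2.

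Members with a P-loop whose annotation names the phragmoplast or cytokinesis were spread over nearly the whole range. POK2 (chr3:6577724-6590253), a phragmoplast-orienting kinesin that marks the division plane, had 29.3% CpHpG (28.5% to 30.1%), whereas its relative POK1 had 5.22% (4.71% to 5.78%) with 16.8% CpG. PAKRP1, which links the plus ends of phragmoplast microtubules, had 23.9% (23.0% to 24.9%), and its close relative KINESIN-12B 8.04% (7.33% to 8.81%). The intervals of these relatives did not overlap, but such intervals cover counting error only. Variation between plants or libraries was not tested. TES, required for cytokinesis after male meiosis, had 7.56%, ATK5, which shapes the spindle, 7.62%, and HIK, required for cytokinesis, 3.43%. Thus 2 of the 7 members in this group reached 10%, where 40.1% of protein-coding genes of at least 3 kb did. All 7 had at least 10% CpG, as did 76.2% of those genes.

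The remaining named motors differed likewise. The ATK genes encode minus-end-directed kinesins, of which ATK1 is needed for the spindle of male meiosis. Their CpHpG level was 21.8% in ATK3, 17.4% in ATK1, 13.4% in ATK4 and 6.03% in ATK2, with CpG between 37.4% and 42.0% in all 4. KAC1 and KAC2, the kinesin-like proteins of actin-based chloroplast movement, had 20.9% (19.9% to 21.9%) and 13.0% (12.2% to 14.0%). The armadillo-repeat kinesins had 15.8% in MRH2 (root-hair tip growth), 9.49% in ARK2 and 5.59% in ARK3. FRA1, which orients cellulose microfibrils in fibres, reached 23.9%, against 6.35% in ZWI (trichome branching), 5.83% in KINESIN-13A (Golgi and trichomes) and 9.77% in KP1. Of the 5 members whose annotation names a calponin-homology domain, AT1G63640 had 27.4% CpHpG and the others between 2.02% and 3.10%. The domain itself was not searched for in the other members. The 12 covered members without a P-loop had a median of 3.02%, and only AT4G26410 (22.2%) and NEK6 (22.1%) passed 10% (2 of 12, where 18.9% of all protein-coding genes did). The median of the 61 members with a P-loop was 7.93%, and these were longer genes, with a median of 5764 bp against 2631 bp.

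**Figure D2:**
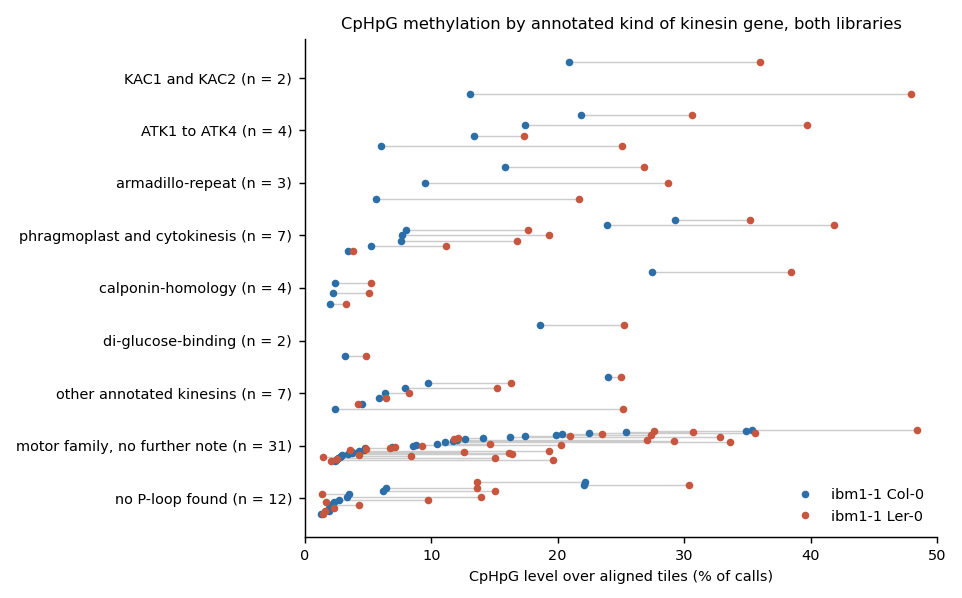
CpHpG level over aligned tiles (% of calls) of the 72 comparable kinesin genes, grouped by annotation, with Col-0 in blue, Ler-0 in red and a line joining the values of 1 gene. Both KAC genes and all 3 armadillo-repeat genes lay at least 10 points higher in Ler-0, whereas FRA1 differed by 1.02 points.

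Members with more CpG methylation had more CpHpG methylation, with exceptions. All but 1 of the 27 members with at least 10% CpHpG also had at least 10% CpG, but 30 further members had such CpG levels with less than 10% CpHpG. AT4G15885 was the extreme, with 48.0% CpG and 1.88% CpHpG, the latter on 39 CpHpG cytosines only. AT5G42490 (43.2% CpG, 4.45% CpHpG), AT5G27550 (41.7% and 3.72%) and AT4G24170 (40.5% and 4.75%) were full-length genes of the same kind. The lowest CpHpG levels among members with at least 10% CpG were, after AT4G15885, 2.39% in AT3G63480, 2.48% in AT2G36200, 2.68% in NDP1 and 3.10% in AT5G41310. Across the 73 members the CpG and CpHpG levels had a Spearman rho of 0.78 (Pearson's r 0.75), the 56 members with at least 10% CpG a rho of 0.66, and gene length and CpHpG a rho of 0.53. These are descriptions over genes of 1 library, which are not independent. The number of reads also moved with the level (rho 0.74 between reads per CpHpG cytosine and CpHpG level, 0.36 over all protein-coding genes), with a median of 11.3 reads in members with at least 10% CpHpG and 8.02 in the others, and its part in the levels was not tested.

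AT2G37420 (chr2:15700211-15705362), a motor family member, was the exception, with 12.0% CpHpG (10.9% to 13.2%) on 5.34% CpG. Its CpHpG methylation filled 3 neighbouring tiles (24.7%, 21.2% and 21.6% between 3039 and 4039 bp from the gene's start). The first of these had 45.0% CpG methylation and the middle one 1.40%. Col-0 tiles with at least 25% CpHpG and less than 10% CpG were rare. They made up 3 of 739 member tiles (0.406%), and 0.210% of tiles in all protein-coding genes. POK2 held 2 of them, with 25.2% and 28.3% CpHpG on 1.94% and 8.40% CpG, beside tiles with up to 90.9% CpG, and AT3G12020 the last one. In Ler-0 there were 10 of 688 member tiles (1.45%, against 0.461% in all genes), or 8 of 563 without the members of the chromosome 3 stretch, among them the tile of AT2G37420 at 3539 bp (37.4% CpHpG, 2.50% CpG) and a tile of KAC1 at 4183 bp (33.5% and 0.877%).

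Along the genes, CpHpG methylation was nearly absent at the start, highest in the middle and low at the end. Each gene was cut into 10 equal parts from start to end. In Col-0 the pooled level was 1.89% in part 1, rose to 20.4% (19.9% to 20.9%) in part 5, was 19.2% in part 7 and fell to 4.58% in part 10. Ler-0 followed the same course at higher levels, with 2.03% in part 1, 32.2% (31.6% to 32.8%) in part 5 and 6.14% in part 10. Without the members of the chromosome 3 stretch, part 5 was at 17.3% (Col-0) and 31.5% (Ler-0). CpG methylation peaked further downstream, in part 7 (50.7% and 59.1%). Of the 27 members with at least 10% CpHpG, 18 had their highest part among parts 4 to 7, 3 among parts 1 to 3 and 6 among parts 8 to 10. The 500 bp upstream of the genes had a pooled level of 11.1% but a median over members of 2.19%. That methylation came from few genes and had another make-up. AT3G44050, itself at 2.90% CpHpG, had 77.3% CpHpG and 40.1% CpHpH upstream, and MRH2 62.9% and 41.6%, while 12 of 73 members had at least 10% CpHpG there. That count had no limit on reads, and AT5G06670 entered it on 9 calls. The share over all protein-coding genes was not counted, so 12 of 73 cannot be called high or low for kinesin genes.

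**Figure D3:**
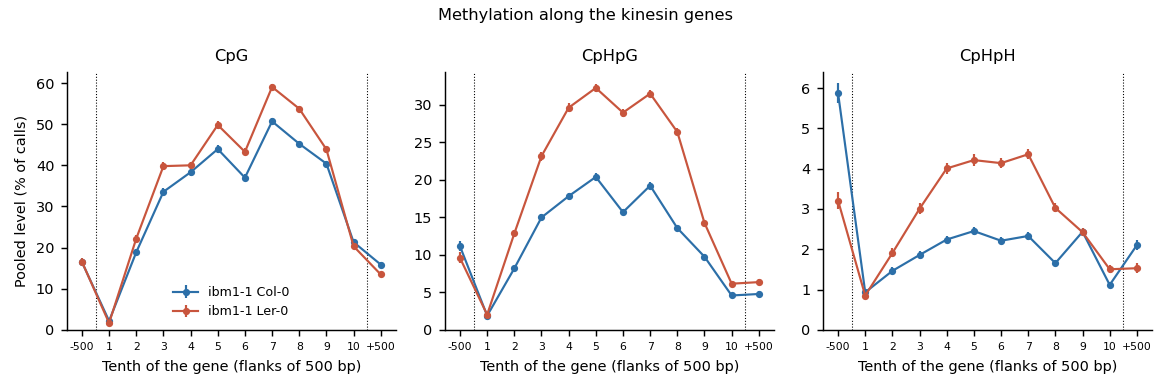
Pooled CpG, CpHpG and CpHpH levels (% of calls, 95% Wilson intervals) in the 10 equal parts of the kinesin genes and in their 500-bp flanks, with 73 genes in Col-0 (blue) and 72 in Ler-0 (red). The CpHpG level in part 5 reached 20.4% (Col-0) and 32.2% (Ler-0), while both libraries were at about 2% in part 1.

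Coding sequence and introns carried similar CpHpG levels, in contrast to CpG. In Col-0, the level was 13.5% (13.4% to 13.7%) in coding sequence and 14.4% (14.1% to 14.6%) in introns, whereas CpG was 36.0% and 27.2%. The corresponding CpHpG levels for Ler-0 were 23.6% and 24.0%. In the 27 members with at least 10% CpHpG, coding sequence was the higher in 12. The UTRs had 8.42% in Col-0, but this rested on AT5G27950, and without that gene the level was 2.54% (2.25% to 2.86%). The region that encodes the ATP-binding core of the motor, from P-loop to switch II, was not singled out. By the stricter form of both motifs it could be found in 37 members and had the higher CpHpG level than the rest of the gene in 16 of them (pooled 11.8% and 12.6%). By the more general form it was the higher in 27 of 57 (pooled 14.3% and 13.5%). Single genes differed in either direction. In AT3G12020 the core had 36.6% and the rest 6.15%, and in PAKRP1 36.7% and 21.1%, while in FRA1 the core had 6.52% and the rest 26.7%, and in KAC1 4.04% and 22.3%.

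The sequence classes of CpHpG were methylated in the order CpApG, CpTpG, CpCpG. Over all members the pooled Col-0 levels were 14.5% at CpApG, 13.2% at CpTpG and 9.49% at the external cytosine of CpCpG, and over all protein-coding genes 13.6%, 12.6% and 8.05%. CpCpG sites hold an internal cytosine, which is in the CpG context, beside the external one in the CpHpG context, and the study asked how the first relates to the second. In the members, 1901 sites had at least 5 reads on both cytosines. The external cytosine was methylated (at least 25%) without the internal one (at least 50%) at 3 of these sites (0.158%), internal methylation alone was found at 411 (21.6%) and both at 214 (11.3%). In all protein-coding genes these shares were 0.354%, 14.5% and 8.15%, so external methylation alone was rare there too. Of the 625 sites with a methylated internal cytosine, 34.2% (30.6% to 38.0%) were methylated at the external one, compared with 36.0% in all protein-coding genes, and this share was 47.0% (43.2% to 50.8%) in Ler-0 (47.2% without the members of the chromosome 3 stretch). With the external cytosine called at 50%, the Col-0 share of the members was 14.4%. Members with at least 10% CpHpG had a median of 1.96 methylated internal cytosines per kb, members with CpG but less than 10% CpHpG 1.49 and members with less than 10% CpG 0.159. These numbers also depend on depth. Too few reads left 412 sites uncalled in the first group, beside 911 called, and 470 in the second, beside 686 called. Every member of the first group and of the second had a methylated internal cytosine, at least 2 and at least 1 respectively, whereas 7 of 17 in the last had none. As the internal cytosine is itself a CpG cytosine, the low number in the last group follows from how that group was formed. AT2G37420 is in both the first and the last group. AT2G21300 had 36, the most of any member, and 21 of these were methylated at the external cytosine too. KP1 had 21 such sites with 1 external cytosine methylated.

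The kinesin genes carried more CpHpG methylation in the Ler-0 than in the Col-0 library. Of 72 members, 61 were higher in Ler-0, as were 58.5% of all protein-coding genes and 69.9% of those of at least 3 kb. For 24 members (33.3%) the difference was at least 10 points, which was seen in 9.91% of all protein-coding genes and in 23.0% of genes of at least 3 kb. Among the 64 comparable members of that length, 22 (34.4%) were at least 10 points higher. The covered genes of at least 3 kb were again shorter (median 3902 bp) than the members of that length (5661 bp). Length was thus not matched in these comparisons, and its part in the difference was not tested. None of the 72 members was lower by at least 10 points, where 2.81% of all genes were. The median difference was 6.22 points, against 0.28 in all genes and 1.70 in genes of at least 3 kb. All 27 members at or above 10% in Col-0 were so in Ler-0 as well, and 20 further members passed 10% in Ler-0. The resulting 47 of 72 stand beside 5695 of 24729 protein-coding genes at or above 10% in Ler-0. For a length of at least 3 kb the counts were 44 of 64 members and 3545 of 6760 genes. On either side of the limit of 10 points stood AT4G24175 (10.6) and KINESIN-12B (9.62). Without the 10 members of the chromosome 3 stretch, 22 of 62 were at least 10 points higher (median 6.84). With 1 library per ecotype, the difference between ecotypes and that between 2 plants or libraries cannot be told apart.

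The number of reads moved together with these differences. The log2 ratio of reads per CpHpG cytosine between Ler-0 and Col-0 had a Pearson's r of 0.84 with the difference over the 72 members. Reads per cytosine were higher in Ler-0 than in Col-0, against the order of the libraries as a whole, in 13 of the 24 members with at least 10 points more and in 2 of the other 48. When shared cytosines with at least 5 reads in both libraries were given equal weight, 20 of 72 members were at least 10 points higher and the median difference was 5.12. In the 36 members whose CpHpG cytosines were read 8 or more times on average in both libraries, 20 were at least 10 points higher and the median difference was 11.0. Because reads moved with the difference, this limit can itself select members that were higher in Ler-0. It therefore cannot separate depth from level.

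**Figure D4:**
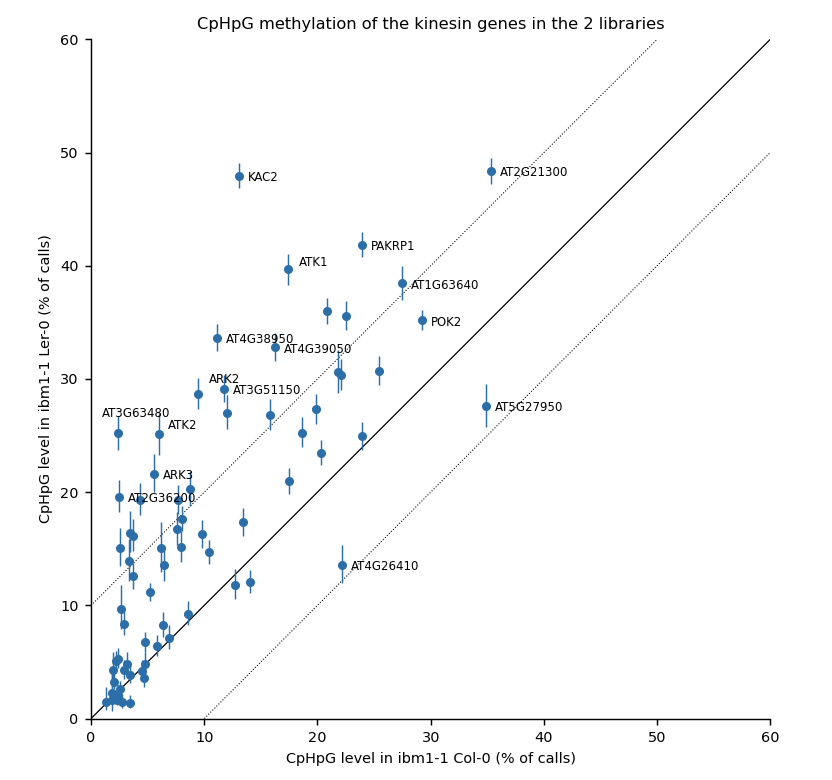
CpHpG level in Ler-0 against that in Col-0 (% of calls over aligned tiles) for 72 kinesin genes, with 95% Wilson intervals for Ler-0, a solid line of equality and dotted lines at 10 points from it. KAC2 stood farthest from equality, at 13.0% (Col-0) and 47.9% (Ler-0), and no gene lay below the lower dotted line.

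KAC2 (chr5:26161624-26169191) had the largest difference. Its CpHpG level was 13.0% (12.2% to 14.0%) for Col-0 and 47.9% (46.8% to 49.1%) for Ler-0, a difference of 34.9 points, with CpG at 46.7% and 69.7% and reads per CpHpG cytosine at 9.61 and 14.0. In Col-0, CpHpG was highest in the tile at 2940 bp, with 40.1%, while the 4 tiles from 4940 to 6440 bp had between 3.04% and 4.28%. In Ler-0 CpHpG was between 30.5% and 54.8% in those 4 tiles. CpG methylation differed there too, and in the tile at 5440 bp it was 0.490% for Col-0 and 69.7% for Ler-0. The stretch with the most methylated CpHpG cytosines in that tile (chr5:26163741-26163890, 80 coding and 70 intronic bases) had 0 of 17 in Col-0 and 14 in Ler-0, marked as above.
KAC2, Col-0: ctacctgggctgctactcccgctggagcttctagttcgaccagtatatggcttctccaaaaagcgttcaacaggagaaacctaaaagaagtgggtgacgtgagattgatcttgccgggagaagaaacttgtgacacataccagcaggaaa
KAC2, Ler-0: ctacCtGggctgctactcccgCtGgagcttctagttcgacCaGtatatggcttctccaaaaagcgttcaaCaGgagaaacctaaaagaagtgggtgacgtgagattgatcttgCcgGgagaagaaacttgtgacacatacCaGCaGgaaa
Its relative KAC1 had its highest tile at 5183 bp in either library, at 38.8% and 68.2%, and gene levels of 20.9% and 36.0%.

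**Figure D5:**
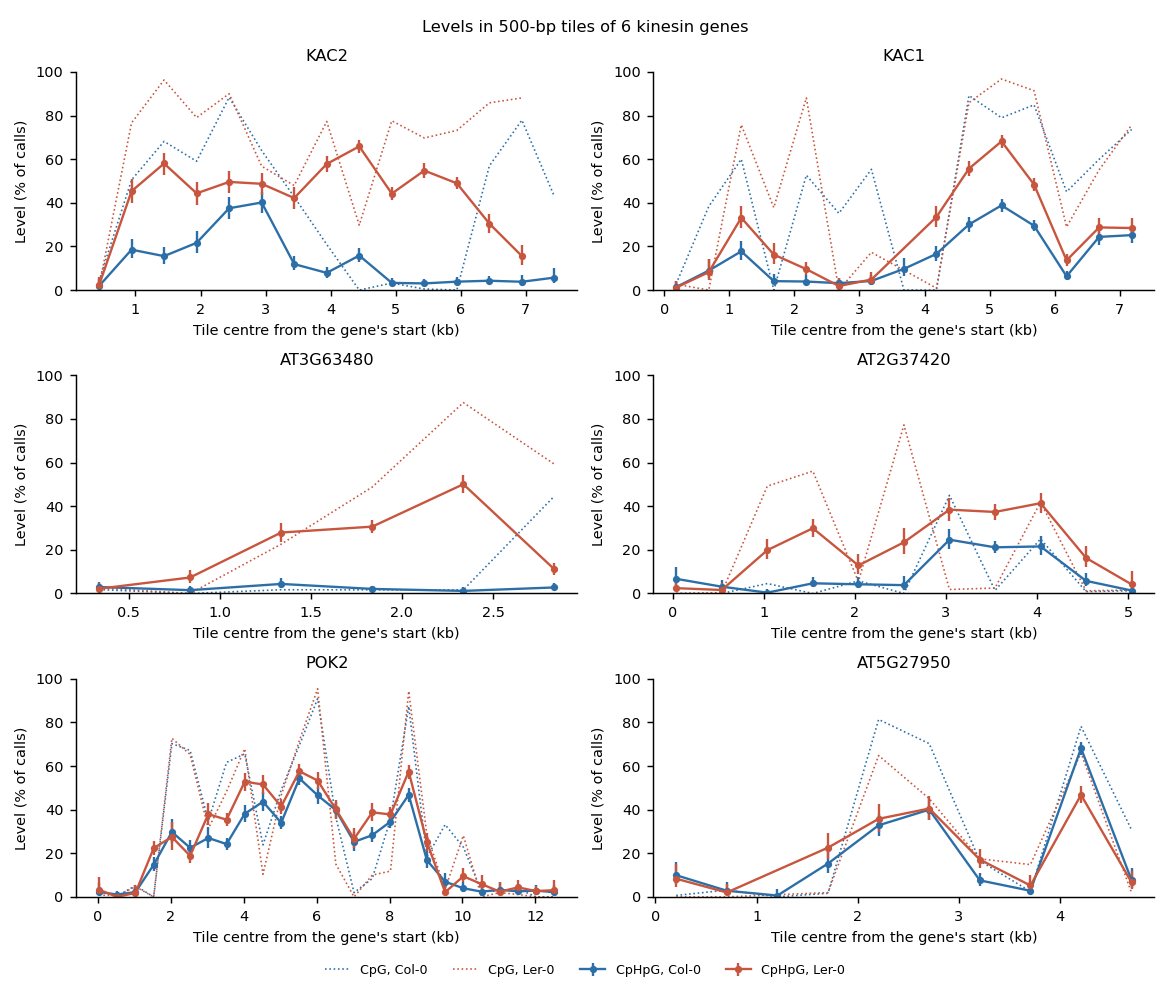
CpG (dotted) and CpHpG (solid, 95% Wilson intervals) levels in % of calls in the 500-bp tiles of 6 kinesin genes, by distance of the tile centre from the gene's start, with Col-0 in blue and Ler-0 in red. In AT3G63480 CpHpG was at most 4.38% in every Col-0 tile and reached 50.1% in Ler-0, whereas the highest POK2 tile was at 54.3% and 57.6%.

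AT3G63480 (chr3:23440887-23444088) was next, with 2.39% for Col-0 and 25.2% for Ler-0, and CpG at 10.1% and 42.7%. Its tile at 2337 bp went from 1.18% to 50.1% CpHpG and from 1.65% to 87.5% CpG. AT4G38950 had 11.1% and 33.6%, ATK1 17.4% and 39.7%, and ARK2 9.49% and 28.7%, a difference of 19.2 points, with ATK2 close behind at 19.1. AT2G36200, a motor family gene, had 2.48% and 19.6%, and its tile at chr2:15182501-15183000 4.35% and 52.0% CpHpG with 9.88% and 94.5% CpG. These tiles of KAC2, AT3G63480 and AT2G36200 were the 3 member tiles with less than 5% CpHpG in Col-0 and at least 50% in Ler-0, against 0.169% of tiles in all protein-coding genes. The reverse was seen in no member tile and in 0.0644% of tiles in all genes. Over members, the CpG and CpHpG differences had a rho of 0.67. Of the 24 members at least 10 points higher in CpHpG, 9 were at least 10 points higher in CpG, and 2 were lower in it. The latter were AT1G63640 (CpHpG 27.4% and 38.4%, CpG 56.5% and 50.6%) and AT5G02370, with CpHpG levels of 2.59% and 15.1%, while CpG was 3.17% and 2.33%.

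The libraries also differed in the number of strongly methylated tiles. Among the 687 member tiles covered in both, 94 (13.7%) had at least 25% CpHpG in the Col-0 library and 194 (28.2%) in the Ler-0 library. In all protein-coding genes, 10.7% of the 117116 tiles covered in Col-0 reached 25% there, beside 94 of 747 member tiles (12.6%). Of the 104022 tiles of all protein-coding genes covered in both, 16534 did so in Ler-0, beside 194 of 687 member tiles. Members thus stood nearer to the background in Col-0. Tiles with at least 50% CpHpG made up 4 of 747 member tiles in Col-0 (0.535%, against 2.34% of tiles in all protein-coding genes), 1 each in AT5G27950, POK2, AT3G12020 and FRA1. In Ler-0 they made up 42 of 687 (6.11%, against 5.36%), spread over 21 members, with 5 each in AT2G21300 and POK2 and 4 each in AT1G63640 and KAC2. The POK2 tile, in the chromosome 3 stretch, was the one above 50% in both, whereas 66.9% of the strong Col-0 tiles of all protein-coding genes were so in Ler-0. Without the members of that stretch, 2 of 564 tiles had at least 50% CpHpG in Col-0 and 33 in Ler-0, with none shared, and 69 and 162 had at least 25%. Single tiles also went the other way. NEK6 had a tile (chr3:15907501-15908000) at 42.0% CpHpG and 72.1% CpG in Col-0 and at 3.50% and 1.52% in Ler-0, although the gene as a whole was the higher in Ler-0 (22.1% and 30.4%). Gene levels were lower in Ler-0 by the most in AT4G26410, a chromosome-associated kinesin by name, by 8.57 points (22.2% and 13.6%), and in AT5G27950, by 7.26 points (34.9% and 27.6%).

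Some members differed in CpG far more than in CpHpG. In AT5G42490 the CpG level over aligned tiles was 44.5% for Col-0 and 15.8% for Ler-0, with CpHpG at 4.66% and 3.54%. The fragment AT4G15885 had 48.0% and 0.980% CpG. In RIP3, CpG was 2.16% and 26.2%, and CpHpG 1.97% and 4.28%. The median CpHpH level of the members was 1.32% for Col-0, at the non-conversion floor (1.34%), and 2.01% for Ler-0 (floor 1.38%). In protein-coding genes of at least 3 kb it was 1.24% and 1.51%. Among members, CpHpH was highest in Ler-0 in PAKRP1 (8.11%) and ATK1 (7.01%).

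Other genes of the cytoskeleton were read in the same way. Of 16 tubulin genes, which encode the track on which kinesins walk and are short (median 2439.5 bp), 1 reached 10% CpHpG in Col-0, the median was 2.25%, and none was at least 10 points higher in Ler-0. Of 32 genes for microtubule-associated proteins, 15 (46.9%) reached 10%, the median was 5.30%, and 9 of 31 were at least 10 points higher in Ler-0. Of 93 genes whose annotation names myosin, a mixed list that also holds myosin-binding proteins, 40 (43.0%) reached 10% and 18 of 83 were at least 10 points higher. The 17 of these that carry a myosin motor symbol are the actin-based counterparts of kinesins. They had a median length of 10100 bp and a median CpHpG level of 17.9%, 11 reached 10%, and 9 were at least 10 points higher in Ler-0.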

How the data were processed

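The cytosine reports deposited for both libraries list every cytosine with 2 counts made by the authors, of reads calling it methylated and of reads calling it unmethylated. The authors trimmed reads with Trimmomatic, aligned them with Bismark to TAIR10 for Col-0 and to a Ler-0 assembly for Ler-0, and collapsed duplicated reads. Tool versions were not given in the sources used here. All nuclear cytosines of the Col-0 report matched the TAIR10.1 reference, whose RefSeq annotation was used. Levels are methylated calls over all calls. Since calls from the same read are not independent, Wilson intervals (95%) cover counting error only.

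The Ler-0 sequence was rebuilt from cytosines and trinucleotides, with unresolved bases written as A. TAIR10 tiles of 500 bp, reduced alike, were placed with bwa mem 0.7.19 (mapping quality and score gap of at least 20, at least 400 bp aligned, span up to 600 bp), and 212125 of 238291 were placed once. A member was compared where placed tiles covered at least 50% of it. Tiles belonged to a gene with at least 250 bp inside it and needed at least 4 covered CpHpG cytosines and 4 reads per cytosine. The steps were tested on simulated data.

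With 1 library per ecotype no test was made, and limits of 10% and 10 points were used. Members and lists were chosen with earlier results of these data known. Every member could be named. Full values went to those highest in CpHpG, lowest despite CpG, most different between libraries and next to a limit. The single-base stretches were to come from the 3 members with the highest tile, but that of AT5G27950 lies in a UTR and FRA1, next in rank, took its place. Genes named kinesin only in synonyms are no members. A peroxidase sharing the symbol TPX2 was removed from the microtubule-associated list. The general P-loop (4 free residues between the first glycine and the closing G-K-S/T), the myosin motor list, equal weights for the difference, and tiles, parts and CpCpG sites without the chromosome 3 stretch were added after seeing the data. Python 3.11.15, numpy 2.4.6, pandas 2.3.3, scipy 1.17.1 and matplotlib 3.10.9 were used.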

Additional observations from a re-analysis of the deposited data

How the results depend on the processing

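No paired analysis was possible because each ecotype had 1 library. For the same reason no replicate could be left out. Of 50 alternative values, 37 stayed within 1.5 times the count or within the counting interval of the median member, 13 moved and none reversed. Counts were compared without their totals, so 25 of 48 members passed as unchanged from 27 of 73, and 20 of 36 from 24 of 72. Placed tiles over at least 80% of the gene left all 72 members in, so that setting could not move. The interval of 1 gene does not measure the spread of a median over genes. The count of members with at least 10% CpHpG was 13 with a limit of 20%, 43 with a limit of 5% and 13 among the 41 members with the stricter P-loop form, where 29 had at least 10% CpG, fewer members being counted there. The median CpHpG level was 10.8% in the 48 members with at least 8 reads per cytosine, 5.19% after subtracting non-conversion and 7.93% in the 61 members with the general P-loop. At a limit of 20 points, 4 members were higher in Ler-0. The median difference was 11.0 points in the 36 members with at least 8 reads in each library, a limit that is not independent of the difference, and the cause was not tested. With the external cytosine called at 50%, 14.4% of internally methylated CpCpG sites were methylated at it. The part with the highest CpHpG level was part 6 by the median over members. The core from P-loop to switch II was the higher in 27 members with the general motifs, and 94 member tiles passed 25% CpHpG. With at least 8 reads per cytosine the count of tiles with at least 50% CpHpG stayed at 4. Depth left 1131 CpCpG sites of the members uncalled in Col-0 and 1238 in Ler-0.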
